A study of Mus musculus with 24 samples.

Results

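The genes described here encode the chondroitin sulfate proteoglycans of brain and the partners that hold them in perineuronal nets. They were taken as every array probe whose gene symbol was Acan, Bcan, Ncan, Vcan, Hapln1, Hapln2, Hapln4, Tnr, Ptprz1 or Cspg5. The rule found 12 probes of 9 of these 10 genes among 25697 probes on the array (16590 named genes), and no probe carried the symbol Ptprz1. Of the 12 probes, 10 probes of 8 genes were detected often enough to be tested, among 14994 such probes in all.

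Lecticans (aggrecan, brevican, neurocan and versican, from Acan, Bcan, Ncan and Vcan) are core proteins that carry chondroitin sulfate chains and bind the polysaccharide hyaluronan. Link proteins (from the Hapln genes) clamp a lectican onto hyaluronan, and tenascin-R (Tnr) crosslinks lecticans at their other end, so that together they build the dense matrix called a perineuronal net around the cell body of many parvalbumin neurons. A related matrix of Hapln2, Bcan, Vcan and Tnr products sits at the nodes of Ranvier of myelinated axons, and Cspg5 (neuroglycan C) and Ptprz1 (a receptor phosphatase) are membrane-bound proteoglycans of neurons and glia.

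RNA of mouse brain at postnatal day 21 was measured on 24 Illumina bead arrays, with 4 arrays for each of 6 groups. In the cerebellum, the cortex and the striatum, a conditional THAP1 knockout (KO) was set against a control. THAP1 binds DNA through a zinc finger, and mutations in it cause a hereditary dystonia. The labels of KO and control arrays alike carry the word Nestin, the name of a gene of neural progenitors, and do not describe the allele or the Cre line further. The design text names 4 KO and 4 control mice, and the labels do not say which mouse each array came from. If these 8 mice gave all 24 arrays, arrays of different regions share animals. The fits treat the arrays as independent, so p-values of an effect averaged over regions may be too small, and p-values in general measure the spread between these arrays.

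The mean raw intensity of an array ranged from 287 to 570, and 47.2% to 54.5% of probes were detected. Marker lists of each region averaged 9.74 to 10.3 on cerebellum arrays against 5.17 to 5.95 elsewhere, 7.18 to 7.49 on cortex arrays against 5.31 to 6.12 elsewhere, and 9.37 to 10.1 on striatum arrays against 5.39 to 8.70 elsewhere (log2 intensity). The 3 probes of Thap1 did not move together. ILMN_2603593 was detected on 0 of 12 KO arrays and 8 of 12 control arrays, and ILMN_2907066 on 1 of 12 KO arrays and 10 of 12 control arrays. ILMN_1258989 was detected on 12 of 12 KO arrays and 10 of 12 control arrays, and its level was higher in KO by 1.14 in the cerebellum (adjusted p = 0.0152), 0.83 in the cortex (adjusted p = 0.0927) and 0.40 in the striatum (adjusted p = 0.789) on the log2 scale, with a mean of 0.79 (adjusted p = 0.000431, limma). The place of each probe relative to the deleted part of the gene was not analysed here. Some genes, among them B3galt6 and Adamts4, followed the order of the label numbers within the groups of 4, and no call on the proteoglycan and net genes changed with this order as a block in the fit. That block took KO and control arrays of the same order together, so it cannot stand for single animals.

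Several of the genes lie side by side in the genome. In the GRCm38.p6 annotation 0 genes lie between Hapln4 and Ncan on chromosome 8, 0 between Bcan and Hapln2 on chromosome 3, and 0 protein-coding genes between Hapln1 and Vcan on chromosome 13. RefSeq promoter sequence (GRCm38.p6, 250 bases before to 50 after the gene start) was at hand for 8 of the 10 genes. It was missing for Hapln4 and Cspg5, whose promoters could not be searched. The promoters of Bcan and Hapln2 are shown because these neighbours differed in opposite directions between cerebellum and forebrain. That of Ncan is shown because its profile spanned the widest range, and that of Hapln1 because it alone held the recognition sequence of THAP1. They lie at chr3:88000307-88000606 (Bcan, minus strand), chr3:88027462-88027761 (Hapln2, minus strand), chr8:70120795-70121094 (Ncan, minus strand) and chr13:89540386-89540685 (Hapln1, plus strand), and each is written 5′ to 3′ on the strand of its gene, with capitals for the THAP1 recognition sequence.
Bcan: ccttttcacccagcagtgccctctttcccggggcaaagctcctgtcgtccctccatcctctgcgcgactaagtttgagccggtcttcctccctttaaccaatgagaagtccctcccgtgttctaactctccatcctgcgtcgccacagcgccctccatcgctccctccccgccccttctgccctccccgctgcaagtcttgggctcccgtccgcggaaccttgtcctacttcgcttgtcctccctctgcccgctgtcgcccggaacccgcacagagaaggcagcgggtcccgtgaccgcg
Hapln2: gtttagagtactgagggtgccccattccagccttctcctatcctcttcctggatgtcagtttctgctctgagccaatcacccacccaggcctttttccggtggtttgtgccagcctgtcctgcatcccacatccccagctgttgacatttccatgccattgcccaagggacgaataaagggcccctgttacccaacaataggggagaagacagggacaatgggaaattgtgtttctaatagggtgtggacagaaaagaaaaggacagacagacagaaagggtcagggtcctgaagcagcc
Ncan: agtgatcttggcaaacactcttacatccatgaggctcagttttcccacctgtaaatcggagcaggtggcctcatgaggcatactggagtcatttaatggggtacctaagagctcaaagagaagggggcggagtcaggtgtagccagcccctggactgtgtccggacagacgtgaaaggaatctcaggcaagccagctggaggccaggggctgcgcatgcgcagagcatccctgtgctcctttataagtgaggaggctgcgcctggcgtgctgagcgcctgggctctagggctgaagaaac
Hapln1: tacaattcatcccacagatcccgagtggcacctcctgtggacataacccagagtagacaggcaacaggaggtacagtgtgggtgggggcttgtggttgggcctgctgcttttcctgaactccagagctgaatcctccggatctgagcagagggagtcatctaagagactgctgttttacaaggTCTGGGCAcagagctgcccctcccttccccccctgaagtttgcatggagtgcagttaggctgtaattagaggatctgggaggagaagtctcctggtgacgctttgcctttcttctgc

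The recognition sequence known for THAP1, TNNGGGCA, was searched on both strands of each promoter. It was found in 1 of 8 promoters, that of Hapln1, where its first letter is base 184 of 300. Among all 32851 promoters of the table, 13.91% held it. The letters TATAAA, searched the same way, were in 1 of 8 promoters (Ncan, on the strand opposite the gene), against 13.62% of all promoters on either strand. The 4 promoters shown differ in base composition. G and C made up 64.0% of the Bcan promoter, which held 24 CpG dinucleotides, 52.0% of the Hapln2 promoter with 2 CpG, 56.7% of the Ncan promoter with 9 CpG, and 54.3% of the Hapln1 promoter with 3 CpG. The median of all promoters was 52.7% with 7 CpG.

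The probes split into bright ones and ones near the background of the array. Detected on all 24 arrays were 2 of the 3 Bcan probes (ILMN_2670486 and ILMN_2636745) and the probes of Ncan, Cspg5, Hapln2 and Hapln4. The Hapln1 probe was detected on 12 arrays, none of them from the cerebellum, 1 Acan probe (ILMN_2639818) on 8, the Tnr probe on 6 and the last Bcan probe (ILMN_2995619) on 5. The other Acan probe (ILMN_2645654) and the Vcan probe were detected on 0 of 24 arrays and were not tested. Levels of different probes are not compared with each other, since a probe's brightness also reflects its own binding.

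**Figure D1:**
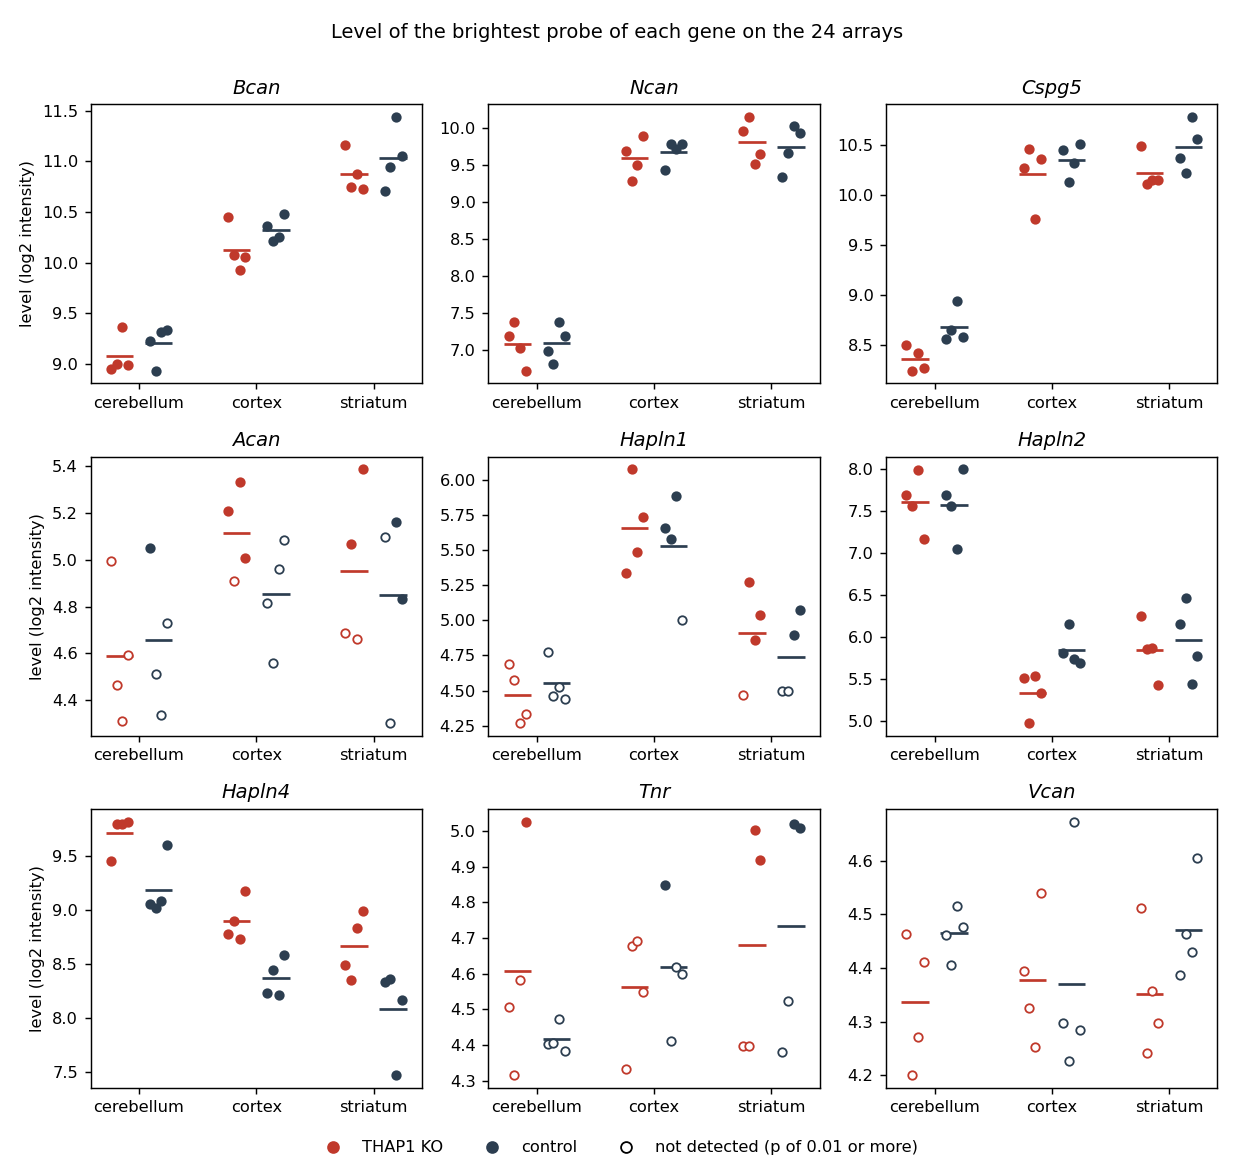
Level on the log2 scale (vertical axis) of the brightest probe of each of the 9 genes, for 4 THAP1 KO arrays (red, left) and 4 control arrays (dark, right) in each region. Points are arrays, open points were not detected, and horizontal lines are group means. Hapln4 stands higher in KO than in control in each region, and Bcan, Ncan and Cspg5 stand lowest in the cerebellum.

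The first comparison asked how the genes differ between the 3 regions in control brain. Of the 10 tested probes, 7 differed between cerebellum and cortex (adjusted p under 0.05 with limma), where 43.2% of all tested probes did, 6 between cerebellum and striatum, where 38.6% did, and 3 between cortex and striatum, where 27.1% did. Brevican, neurocan and neuroglycan C transcripts were lower in the cerebellum than in either forebrain region, and the link proteins Hapln2 and Hapln4 were higher there. Hapln1, a dim probe that passed the detection filter only through cortex and striatum arrays, was higher in the cortex than in either other region.

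Bcan, whose product brevican is the most abundant lectican of the adult brain, had levels of 9.22, 8.93, 9.32 and 9.33 with its brightest probe on control cerebellum arrays, 10.36, 10.21, 10.26 and 10.48 on control cortex arrays, and 10.71, 10.95, 11.44 and 11.05 on control striatum arrays. The 3 regions did not overlap, and each step passed the test. The level was 2.18-fold lower in cerebellum than in cortex (95% interval 1.79 to 2.66, adjusted p = 1.06e-07), and 1.64-fold lower in cortex than in striatum (1.34 to 2.00, adjusted p = 0.000261). The second Bcan probe, ILMN_2636745, gave 1.96-fold (adjusted p = 6.35e-05) and 1.88-fold (adjusted p = 0.000295) for the same steps. The third probe, ILMN_2995619, was near background and passed no test between regions.

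Ncan, which encodes neurocan, a lectican made mostly in the developing brain, showed the widest range. Its levels were 6.98, 6.81, 7.37 and 7.19 on control cerebellum arrays, 9.44, 9.79, 9.71 and 9.79 on control cortex arrays, and 9.34, 9.66, 10.03 and 9.94 on control striatum arrays. All cerebellum arrays lay below all forebrain arrays, while cortex and striatum overlapped. The level was 6.05-fold lower in cerebellum than in cortex (4.75 to 7.70, adjusted p = 2.12e-13) and 6.30-fold lower in cerebellum than in striatum (4.95 to 8.02, adjusted p = 1.27e-13). Cortex minus striatum was -0.06 on the log2 scale (95% interval -0.41 to 0.29, adjusted p = 0.841).

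Cspg5, whose membrane-bound product neuroglycan C is made by neurons, followed Ncan. Levels were 8.56, 8.65, 8.94 and 8.58 on control cerebellum arrays, 10.46, 10.13, 10.33 and 10.52 on control cortex arrays, and 10.38, 10.22, 10.78 and 10.57 on control striatum arrays. The cerebellum lay apart, 3.19-fold below cortex (2.61 to 3.89, adjusted p = 4.66e-11) and 3.49-fold below striatum (2.86 to 4.26, adjusted p = 8.96e-12). Cortex and striatum overlapped, with a log2 difference of -0.13 (-0.42 to 0.16, adjusted p = 0.544).

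The link proteins went separate ways. Hapln4, whose product Bral2 joins brevican to hyaluronan around neurons of the hindbrain and cerebellar nuclei, had levels of 9.05, 9.02, 9.08 and 9.60 on control cerebellum arrays, 8.23, 8.44, 8.21 and 8.58 on control cortex arrays, and 8.33, 8.36, 7.47 and 8.17 on control striatum arrays. The cerebellum lay above both other regions, 1.77-fold above cortex (1.38 to 2.26, adjusted p = 0.000284) and 2.15-fold above striatum (1.68 to 2.76, adjusted p = 6.17e-06). Cortex and striatum overlapped, with a log2 difference of 0.28 (-0.07 to 0.64, adjusted p = 0.246).

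Hapln2, whose product Bral1 sits at the nodes of Ranvier, had levels of 7.69, 7.56, 7.05 and 7.99 on control cerebellum arrays, 5.81, 6.15, 5.74 and 5.69 on control cortex arrays, and 6.15, 6.47, 5.44 and 5.78 on control striatum arrays. The cerebellum again lay above all forebrain arrays, by 3.31-fold over cortex (2.41 to 4.54, adjusted p = 2.26e-07) and 3.06-fold over striatum (2.22 to 4.20, adjusted p = 8.27e-07). Without background correction the Hapln2 folds were 2.02 over cortex and 1.94 over striatum, both still past the threshold. Between cerebellum and forebrain its neighbour on chromosome 3, Bcan, ran the other way. Cortex and striatum overlapped for Hapln2, with a log2 difference of -0.11 (-0.57 to 0.35, adjusted p = 0.762).

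Hapln1 encodes cartilage link protein, which is also the link protein of cortical perineuronal nets. Its levels were 4.77, 4.46, 4.52 and 4.44 on control cerebellum arrays, all below detection, 5.65, 5.58, 5.89 and 5.00 on control cortex arrays, of which 3 were detected, and 4.50, 4.49, 4.90 and 5.08 on control striatum arrays, of which 2 were detected. With only a bound in the cerebellum, the level was at least 1.53-fold lower there than in cortex (adjusted p = 0.000175). For this bound each cerebellum array counted at the dimmest signal detected on it, or at the probe's own signal if brighter. The probe passed the detection filter only through cortex and striatum arrays, so the test against the cerebellum is not independent of how the probe was kept. Without background correction the Hapln1 difference between cerebellum and cortex was 1.26-fold, so the size of the bound depends on that correction. Between cortex and striatum, where the groups overlapped, Hapln1 was 0.79 higher in cortex on the log2 scale (adjusted p = 0.00344), and 0.27 higher without background correction (adjusted p = 0.00525). Since 2 of the 4 striatum arrays were below detection, the size of this difference is uncertain. Acan and Tnr, whose products are a lectican and the crosslinker of perineuronal nets, were too close to background to be ordered by region. Acan (ILMN_2639818) had control group means of 4.66 in cerebellum, 4.85 in cortex and 4.85 in striatum, and Tnr of 4.42, 4.62 and 4.73 in the same order. No test between regions passed for either gene, and a difference between regions was not detectable with these probes.

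**Figure D2:**
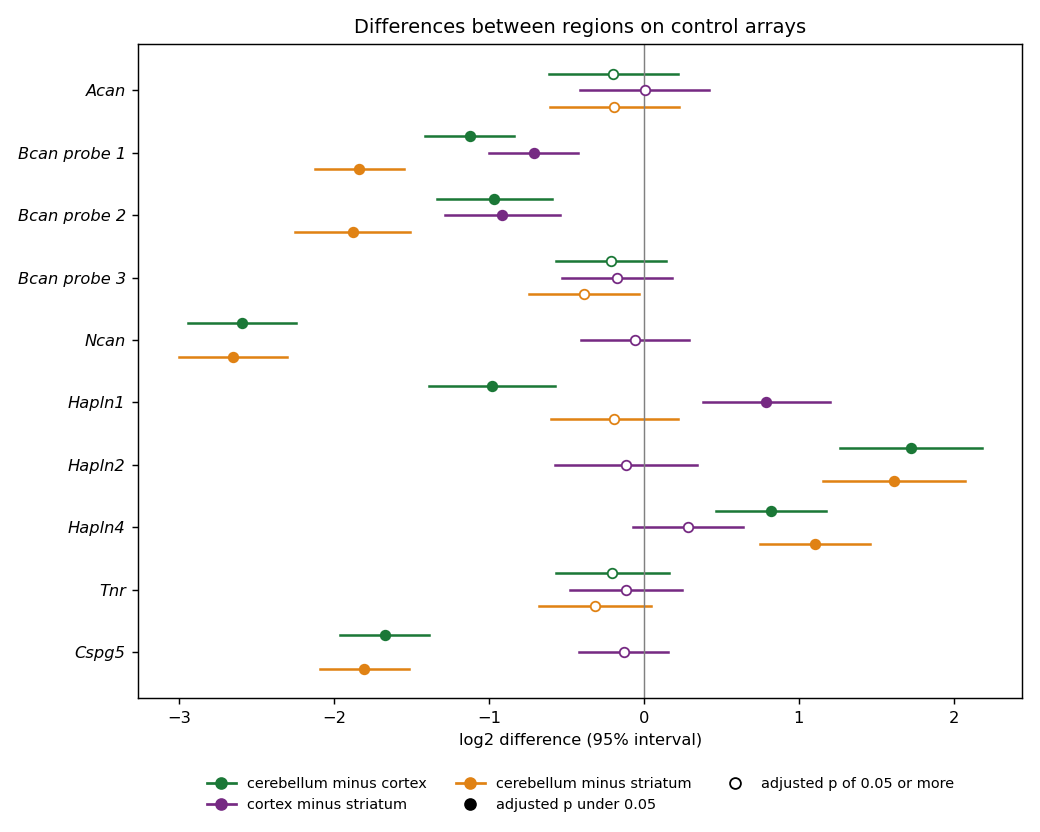
Log2 difference between regions on control arrays for the 10 tested probes, with 95% intervals from the fit to all 24 arrays (n = 4 a group); filled points passed an adjusted p of 0.05. Bcan, Ncan and Cspg5 lie left of 0 and Hapln2 and Hapln4 right of 0 where the cerebellum is compared with another region.

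The next comparison asked whether loss of THAP1 changed the genes in each region. No probe of the set passed the test in a single region, and Hapln4 was the member with the lowest adjusted p in each of them. Averaged over the 3 regions, Hapln4 rose 1.46-fold in KO, and no other member passed the test by that measure. In single regions the test called 0 of 10 member probes in the cerebellum, where 0.200% of all tested probes were called, 0 of 10 in the cortex, where 0.427% were, and 0 of 10 in the striatum, where 0.494% were. At an unadjusted p under 0.05 there were 2 member probes in each region, against 5.07% of all tested probes in the cerebellum, 10.2% in the cortex and 7.03% in the striatum. The KO and control comparisons of a region use the same control arrays as the comparisons between regions.

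On cerebellum arrays Hapln4 had levels of 9.45, 9.79, 9.79 and 9.82 in KO, against 9.05, 9.02, 9.08 and 9.60 in control. On cortex arrays it had 8.77, 8.90, 8.73 and 9.18 in KO, against 8.23, 8.44, 8.21 and 8.58 in control. On striatum arrays it had 8.49, 8.35, 8.83 and 8.99 in KO, against 8.33, 8.36, 7.47 and 8.17 in control. All 4 KO arrays lay above all control arrays in the cortex, as for 4.35% of all tested probes there. In the cerebellum and in the striatum 3 of 4 did so, and the share of all tested probes that reach this was not computed. In the cerebellum 1 KO array (replicate 21) and 1 control array (replicate 20) stood apart from their groups, each toward the other group, and in the striatum 1 control array (replicate 3) was the lowest of all.

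KO minus control of Hapln4 was 0.53 in the cerebellum (95% interval 0.17 to 0.88, adjusted p = 0.599), 0.53 in the cortex (0.17 to 0.89, adjusted p = 0.205) and 0.59 in the striatum (0.23 to 0.94, adjusted p = 0.200) on the log2 scale. None of these 3 passed the threshold with limma. The mean of the 3 differences was 0.55 with an SE of 0.10 (95% interval 0.34 to 0.75, adjusted p = 0.00186), rank 67 of 14994 probes by p. By this measure 1 of 10 member probes was called, against 1.95% of all tested probes, or 0.820% counting rises only. At an unadjusted p under 0.05 there were 2, Hapln4 and Cspg5, against 13.7%. The call was kept when each of the 24 arrays was left out in turn, with a mean difference of 0.48 to 0.59. With genotype and order of the label numbers as a random block, which stands in for a shared animal only if that order marks one, the adjusted p was 0.00423. That fit used a single correlation for all probes, 0.080, so a stronger sharing in Hapln4 itself was not tested. Leaving out 1 array does not take out an animal that gave several arrays. The KO effect on Hapln4 in the cerebellum minus that in the cortex was -0.00 (95% interval -0.51 to 0.50, adjusted p = 1), and cerebellum minus striatum was -0.06 (-0.56 to 0.44, adjusted p = 0.999). These near-equal sizes depend on the scaling, since with median scaling in place of quantile normalization KO minus control was 0.37 in the cerebellum, 0.73 in the cortex and 0.65 in the striatum.

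The neighbour of Hapln4 on chromosome 8, Ncan, gave other values. KO minus control of Ncan was -0.01 in the cerebellum (95% interval -0.36 to 0.34), -0.09 in the cortex (-0.44 to 0.26) and 0.08 in the striatum (-0.27 to 0.43), with a mean of -0.01 (-0.21 to 0.20, adjusted p = 0.987). The groups overlapped in each region. Of 6 measured genes listed for parvalbumin neurons, the cells best known for perineuronal nets, 0 were called in any region. In KO minus control 3 lay above and 3 below 0 in the cerebellum, 4 above and 2 below in the cortex. In the striatum 5 lay above and 1 below (median 0.16). Their mean level ranged from 8.57 to 8.71 in KO and 8.58 to 8.74 in control cerebellum. In the cortex it ranged from 8.45 to 8.67 in KO and 8.37 to 8.60 in control. In the striatum it ranged from 8.72 to 9.11 in KO and 8.69 to 8.80 in control. The list as drawn up also named Tac1, which stands in the striatum marker list too, so it is not particular to parvalbumin neurons. The list did not follow Pvalb between regions. In control striatum and cerebellum the list averaged 8.75 and 8.66, and Pvalb 9.89 and 14.38. Pvalb itself differed between KO and control by 0.04 in the cerebellum, -0.18 in the cortex and 0.19 in the striatum, none past the threshold. Fewer cells of a type and less RNA per cell cannot be told apart in tissue.

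Cspg5 was the member with the largest mean difference below 0, and it did not pass the test. On cerebellum arrays its levels were 8.50, 8.24, 8.42 and 8.27 in KO, against 8.56, 8.65, 8.94 and 8.58 in control, so that all KO arrays lay below all control arrays. The difference there was -0.33 (95% interval -0.61 to -0.04, unadjusted p = 0.0271, adjusted p = 0.898). In the cerebellum 1 of 10 member probes had KO below control with no overlap, against 1.25% of all tested probes. On cortex arrays the difference was -0.14 (-0.43 to 0.14), on striatum arrays -0.26 (-0.55 to 0.03), and the mean over regions -0.24 (-0.41 to -0.08, unadjusted p = 0.00556, adjusted p = 0.136). With median scaling the cortex difference of Cspg5 was 0.02, on the other side of 0. Oligodendrocyte precursors are among the glia that express Cspg5. Of 9 measured genes of these cells, 0 passed the test in a single region, and 8 lay below 0 in the striatum (median -0.25), 5 in the cortex (-0.02) and 6 in the cerebellum (-0.03). In the mean over regions 7 of the 9 lay below 0 and 2 above. Of the 9, 1 was called there, Olig1, which fell by 0.40 (adjusted p = 0.00356, limma), against 1.13% of all tested probes called lower. Pdgfra, of the same list, differed by 0.01 in the mean (adjusted p = 0.983, limma). Its differences were -0.03 in the cerebellum, -0.02 in the cortex and 0.08 in the striatum. The part of this list in the Cspg5 difference was not tested.

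Hapln2 was lower in KO cortex in all arrays without passing the test. Its levels there were 5.51, 4.98, 5.53 and 5.34 in KO, against 5.81, 6.15, 5.74 and 5.69 in control, a difference of -0.51 (95% interval -0.96 to -0.05, unadjusted p = 0.0318, adjusted p = 0.432). In the cortex 1 of 10 member probes had KO below control with no overlap, against 3.46% of all tested probes, and 1, that of Hapln4, had KO above control, against 4.35%. In the striatum 0 of 10 separated either way, against 3.61%. Hapln2 differed by 0.03 in the cerebellum (-0.43 to 0.49) and by -0.11 in the striatum (-0.57 to 0.35), with overlapping groups. Beside it, 8 of 15 measured genes of mature oligodendrocytes and myelin passed the test as lower in KO cortex, against 0.260% of all tested probes, 10 of 15 in KO striatum, against 0.400%, and 0 of 15 in KO cerebellum, against 0.100%. In the cerebellum all 15 lay below 0 without passing (median -0.18). Their mean level ran from 9.30 to 9.85 in KO cortex and 10.11 to 10.38 in control cortex, from 9.43 to 10.3 in KO striatum and 10.33 to 10.7 in control striatum, and from 10.18 to 10.5 in KO cerebellum and 10.36 to 10.5 in control cerebellum. The part of this list in the Hapln2 difference was not tested. Mbp, which encodes a main protein of myelin, fell by 0.38 in the cortex (adjusted p = 0.0379), and its differences of -0.09 in the striatum (adjusted p = 0.926) and -0.06 in the cerebellum did not pass.

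Brevican transcripts differed little. With its brightest probe Bcan averaged 9.07 ± 0.19 in KO and 9.20 ± 0.19 in control cerebellum, 10.13 ± 0.23 in KO and 10.33 ± 0.12 in control cortex, and 10.88 ± 0.20 in KO and 11.04 ± 0.30 in control striatum (SD, n = 4 each). The differences of -0.13, -0.20 and -0.16 were smaller than or close to the spread between arrays, and their mean was -0.16 (95% interval -0.33 to 0.00, adjusted p = 0.379). The second Bcan probe differed by -0.41 in the striatum (-0.78 to -0.04, unadjusted p = 0.0329, adjusted p = 0.648), where its control arrays ranged from 8.54 to 9.69, around the KO range of 8.56 to 8.94.

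The dim members gave no call. Hapln1 averaged 5.66 ± 0.32 in KO cortex, detected on all 4 arrays, and 5.53 ± 0.38 in control cortex, detected on 3 (SD, n = 4 each), a difference of 0.12 (95% interval -0.28 to 0.53, adjusted p = 0.901). Acan (ILMN_2639818) was detected on 3 of 4 KO and 0 of 4 control cortex arrays. Its levels there were 5.21, 4.91, 5.33 and 5.01 in KO, against 4.82, 4.56, 4.96 and 5.08 in control. The groups overlapped, and the bound gave at least 1.06-fold higher in KO (adjusted p = 0.722). Tnr differed by 0.19 in the cerebellum, -0.06 in the cortex and -0.05 in the striatum, all between levels at which most arrays were below detection.

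**Figure D3:**
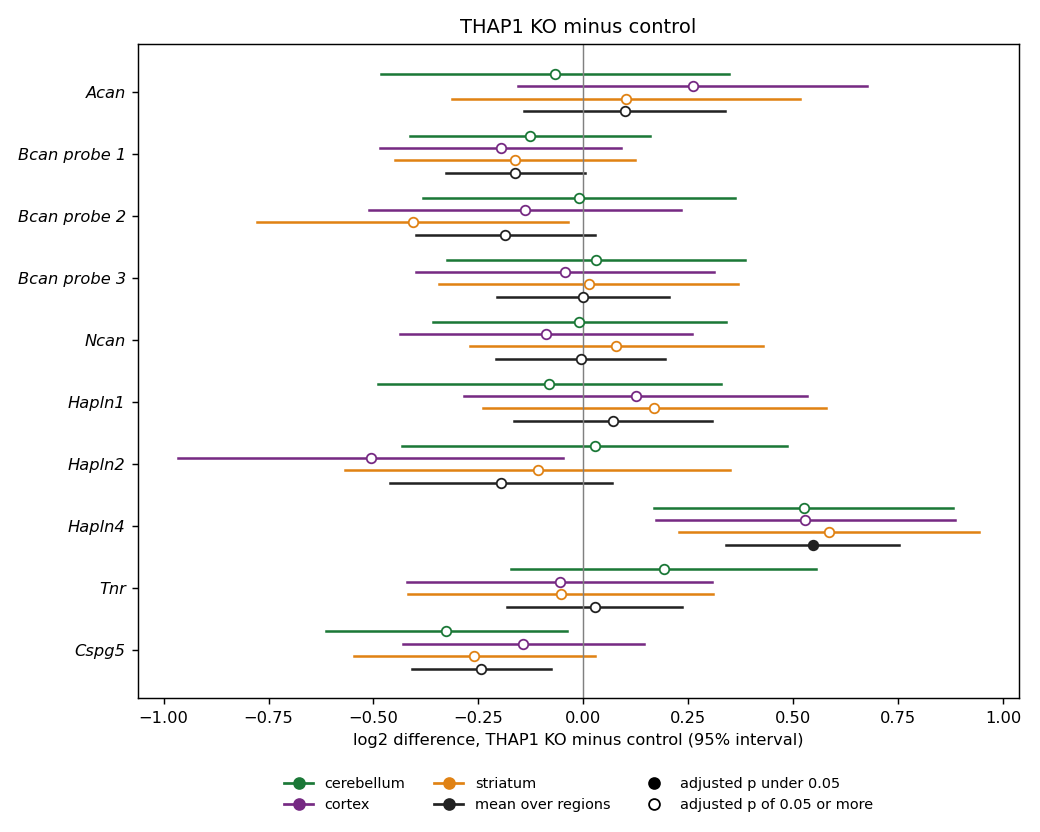
Log2 difference of THAP1 KO minus control for the 10 tested probes in each region and averaged over regions, with 95% intervals (n = 4 arrays a group); filled points passed an adjusted p of 0.05. The mean effect on Hapln4, 0.55, is the filled point.

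The KO effect was also compared between regions. With limma 0 of 10 member probes were called for any of the 3 differences of effects, and 0 had an unadjusted p under 0.05. Over all tested probes 0.00667% were called for cerebellum minus cortex, and 0% for each of the other two, while 3.96% (cerebellum minus cortex), 4.40% (cortex minus striatum) and 3.58% (cerebellum minus striatum) had an unadjusted p under 0.05. The largest of these differences among the members was that of Hapln2, whose KO effect in the cerebellum minus that in the cortex was 0.53 (95% interval -0.12 to 1.18, unadjusted p = 0.103).

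The genes that build, bind and cut these proteoglycans were given by 5 lists, each gene by its brightest tested probe. Few passed the threshold. Of all tested probes, 0.200% were called in the cerebellum, 0.427% in the cortex, 0.494% in the striatum and 1.95% in the mean over regions. Beside such shares, 0 calls in a list of this size does not show that its genes were unchanged. Of 15 measured genes of chondroitin sulfate synthesis, 0 were called in the cerebellum and the striatum, and 1, Chst7, fell in the cortex, while B3galt6 fell in the mean over regions. Of 13 measured proteases that cleave proteoglycans or their inhibitors, 0 were called in a single region, and Adamts4 fell in the mean over regions. With the order of the label numbers as a block in the limma fit, Adamts4 was also called in the cortex (adjusted p = 0.00112) and the striatum (adjusted p = 1.53e-06). That block was chosen after seeing that Adamts4 levels followed the order, so these p-values are no independent support. Without the block its adjusted p was 0.343 in the cortex and 0.0849 in the striatum. Of 6 genes of hyaluronan, 17 binding partners and receptors and 22 other matrix proteins, 0 were called in any region or in the mean. List medians lay between -0.08 and 0.14 on the log2 scale in the 3 regions, beside medians of all tested probes between -0.00 and 0.01.

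Chst7 encodes a sulfotransferase that adds sulfate to chondroitin. Its levels in the cortex were 5.35, 5.18, 4.99 and 5.54 in KO, against 5.75, 6.35, 5.70 and 6.21 in control, with no overlap. The difference was -0.74 (SE 0.17, adjusted p = 0.0468), and those in the cerebellum (-0.12) and the striatum (0.07) did not pass. The call was kept in 7 of 24 fits that left out 1 array and in 5 of 10 other settings, with differences between -0.84 and -0.30 in all of them. The other settings include the fits with the order of the label numbers as a block, chosen after seeing the data.

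B3galt6 encodes a galactosyltransferase that builds the linker on which chondroitin sulfate chains start. Its levels were 5.62, 5.72, 6.61 and 6.83 in KO and 6.80, 7.24, 6.76 and 7.00 in control cerebellum, 5.72, 5.83, 7.27 and 7.12 in KO and 7.03, 7.66, 7.36 and 7.61 in control cortex, and 5.42, 5.47, 7.41 and 7.38 in KO and 7.36, 7.43, 7.34 and 7.23 in control striatum. In each region 2 KO arrays were far below all control arrays and the other two were near them. The mean effect was -0.87 (SE 0.22, adjusted p = 0.0313), called in 15 of 24 fits that left out 1 array and in 7 of 9 other settings. Adamts4 encodes an aggrecanase that cuts aggrecan and brevican. It averaged 8.20 ± 0.46 in KO and 8.32 ± 0.54 in control cerebellum, 7.14 ± 0.45 in KO and 8.00 ± 0.56 in control cortex, and 7.53 ± 0.71 in KO and 8.86 ± 0.71 in control striatum (SD, n = 4 each), and the groups overlapped. Its mean effect was -0.77 (SE 0.20, adjusted p = 0.0359), called in 8 of 24 fits that left out 1 array and in 7 of 9 other settings. For B3galt6 and Adamts4 these settings include the fits with the order of the label numbers as a block, chosen after seeing the data. Mature oligodendrocytes are known to express Adamts4, and members of the myelin list given above fell in cortex and striatum, the 2 regions where the Adamts4 difference was largest. The part of that list in the Adamts4 difference was not tested.

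None of the next genes passed the threshold in a region, and they are given by the rule that took the 2 smallest p in each list. In the cerebellum KO minus control was 0.46 for Chst3, a chondroitin sulfotransferase, 0.33 for the hyaluronidase Hyal2, 0.42 for the hyaluronan receptor Cd44, 0.62 for the gelatinase Mmp2, -0.30 for its inhibitor Timp2, -0.50 for the Nogo receptor relative Rtn4rl1, 0.27 for the adhesion molecule L1cam, -0.52 for Sparcl1 and 0.23 for the syndecan Sdc2. In the cortex it was 0.29 for Has3 and -0.21 for Has1, both hyaluronan synthases, 0.37 for the protease Mme, -0.41 for the adhesion molecule Ncam1, 0.24 for the receptor phosphatase Ptprd, -0.31 for the proteoglycan Spock2 and -0.24 for Sparc. In the striatum it was -0.37 for Chst3, 0.25 for Hyal2, 0.22 for the hyaluronidase Hyal1, 0.19 for Mmp9, -0.54 for Nfasc, a protein of the node of Ranvier, 0.44 for the guidance factor Sema3a, which perineuronal nets bind, 0.57 for tenascin-C (Tnc) and 0.22 for the glypican Gpc5. Their adjusted p ran from 0.153 (Nfasc, striatum) upward.

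**Figure D4:**
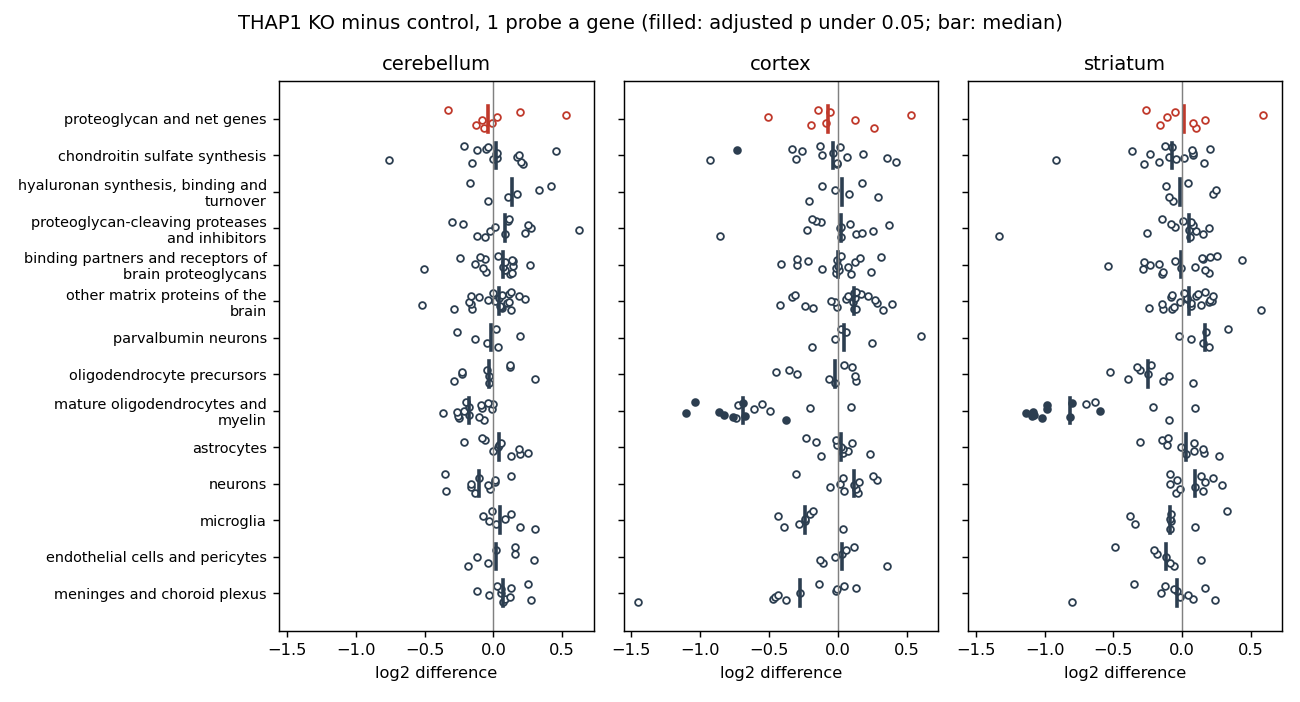
Log2 difference of THAP1 KO minus control in each region for the 8 tested proteoglycan and net genes (red), 5 lists of related genes and 8 lists of cell type markers (dark). Each point is a gene by its brightest probe, filled where the adjusted p is under 0.05, and bars are list medians. The myelin list lies left of 0 in cortex and striatum, with medians of -0.69 and -0.81.

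The genes were last compared in how their levels ran together over the 24 arrays, as a description, since the arrays share regions. Pearson's r between the brightest probes was 0.91 for Bcan and Ncan, 0.96 for Ncan and Cspg5, -0.90 for Ncan and Hapln2, and -0.82 for Bcan and Hapln4. With each group's mean removed, r was 0.42 for Bcan and Ncan, 0.28 for Ncan and Cspg5, -0.02 for Ncan and Hapln2, -0.27 for Bcan and Hapln4, and 0.57 for Bcan and Cspg5, beside 0.75 for the 2 bright probes of Bcan. Among 10230 other named genes, those most like Bcan over the 24 arrays were Ass1, Sez6 and Pitpnc1 (r from 0.970 to 0.972), most like Ncan Crym, Arpp21 and Neto1 (0.986 to 0.988), and most like Cspg5 Nsg2, Hpcal4 and Elfn2 (0.975 to 0.981). Most like Hapln2 were Klk6, Plscr1 and Tlcd1 (0.958 to 0.961), most like Hapln4 Ccpg1, Slc35c1 and Nae1 (0.870 to 0.883), and most like Hapln1 Pdp1, Mtpn and Arpp19 (0.896 to 0.911). For the dim probes the values were lower, with P2rx6, Cdc37 and Memo1 for Acan (0.728 to 0.789) and Pcgf2, Gba2 and Rsph3a for Tnr (0.626 to 0.653).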

How the data were processed

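Per the file headers, each of the 24 arrays has in the deposited raw table a bead intensity on a linear scale and a detection p-value for 25697 probes. The submitters' processing notes name BeadStudio without a version. A processed table of the authors, also deposited, holds intensity with column medians of 11.553 to 11.606. Its background step and normalization stay unknown, and it served as an alternative only. GEO's platform annotation names 1 gene for 23978 probes and no gene for 1719, and 0 probes have more than 1. Of the named probes 23971 matched GRCm38.p6, where 8 symbols were updated.

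Raw intensities were background-corrected with limma 3.58.1 in R 4.3.3 using the detection p-values (offset 16), quantile normalized and taken to log2, which understates changes of dim probes. The filter kept 14994 probes, those detected on 4 or more arrays (p under 0.01). A model of 6 group means over 24 arrays was fitted (lmFit, then eBayes with a trend), with 18 residual and 10.11 prior degrees of freedom. Tests were two-sided, with Benjamini-Hochberg adjustment over all kept probes and a threshold of 0.05. For a list, each gene was given by its brightest probe on average. The fit was tested on simulated data.

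The genes named were the 10 members with all probes, of each list the genes past the threshold and the 2 with the smallest p in each region, and for each member the 3 genes most correlated with it. Mbp, Pvalb and Thap1 were added, with Pdgfra and Gfap, whose KO minus control differences lay between -0.12 and 0.27 and passed in no region. Members and lists were chosen with earlier results of these data known. Alternatives left out background correction, used median scaling, the authors' values, other filters, 1 probe a gene, only the groups compared, array weights, or 1 array fewer. A fit with the order of the label numbers as a fixed block and a fit with it as a random block were chosen after seeing the data. The number of arrays limits the precision. Every sample column had a label (0 without).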

Additional observations from a re-analysis of the deposited data

Results flagged for a closer look

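Of 72 groups of 4 arrays examined, 6 held an array far from the other 3, and chance gives about 1 in 20 groups. For Hapln4 in the cerebellum the lowest KO array, replicate 21, had 9.45 on the log2 scale while the other KO arrays had 9.79 to 9.82. In the same region the highest control array, replicate 20, had 9.60 while the other control arrays had 9.02 to 9.08. For Bcan (ILMN_2670486) replicate 23 of KO cerebellum had 9.36, against 8.95 to 9.00 on the other KO arrays. For Cspg5 replicate 5 of KO striatum had 10.49, against 10.11 to 10.16 on the other KO arrays. The remaining 2 were dim probes. For Bcan (ILMN_2995619) replicate 16 of KO cortex had 4.91, against 4.32 to 4.35 on the other KO arrays, and was the only detected array of its group. For Vcan replicate 11 of control cortex had 4.67, against 4.23 to 4.30 on the other control arrays, and these 4 Vcan values were below detection.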

How the results depend on the processing

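The counts of member probes called stayed within 1.5 times of those given in all 99 values from other settings and all 240 from fits with 1 array left out, and no called difference changed sign. For Hapln4 the mean KO effect stayed called in all 9 other settings (0.46 to 0.58, adjusted p 0.000285 to 0.0078) and without each array (adjusted p 0.000735 to 0.00509). Its single-region differences were called in no setting. Those settings include the fits with the order of the label numbers as a block, and the fixed block gave the lowest adjusted p of the mean, 0.000285. Between control cerebellum and control striatum, Bcan (ILMN_2995619) passed with no background correction (-0.16), with array weights (-0.48) and without striatum control replicate 1 (-0.51), and Tnr passed with median scaling (-0.42).

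Counts over all probes moved more than those of the members. Called probes in the cerebellum, cortex and striatum and in the mean were 30, 64, 74 and 293, and with median scaling 20, 33, 37 and 126. Median scaling moved the median KO minus control difference of all probes to -0.11 in the cerebellum and 0.12 in the cortex. With no filter on detection the cortex had 42, with array weights 257, and with only the groups compared the cerebellum had 9 and the striatum 19. With 1 array left out the cortex had 17 (without KO replicate 16) to 98 (without striatum KO replicate 5) and the striatum 38 (without KO replicate 8) to 121 (without KO replicate 5). Leaving out striatum KO replicate 5 gave 12 calls for the KO effect in cerebellum minus that in striatum, against 0.

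The labels' numbers 1 to 24 are not shared between groups, so no replicate number pairs the arrays. Their order within each group was used as a block after seeing the data. With this order as a fixed block the cortex had 137 calls, the striatum 114 and the mean 398. With genotype and order as a random block (consensus correlation 0.080) the mean had 186. Hapln4 was called in the mean by both fits (adjusted p = 0.000285 and 0.00423). A fit on only the groups compared was not run for the mean over regions, which uses all groups.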

Other observations

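The order of the label numbers within each group of 4 carried structure that the labels do not describe. The Y-linked gene Eif2s3y was detected on 12 of 24 arrays, 2 in each group, at 6.80 or above on the log2 scale, and lay at 4.32 or below on the rest. In KO these were the third and the fourth array by number in each of the 3 regions, and in control the second and the fourth in each region. In KO the first and the second arrays by number, those without Eif2s3y, were also those with low B3galt6 in all 3 regions. In control the arrays without Eif2s3y had B3galt6 between 6.76 and 7.36. The labels give no sex, and the part of sex or of single animals in the B3galt6 levels was not tested. Adamts4 was highest on the first and lowest on the second array by number in all 6 groups, KO and control alike. Over all tested probes 260 of 14994 (1.73%) had an adjusted p under 0.05 for the order (limma, chosen after seeing these values).

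With the order as a fixed block, Adamts4 passed in the cortex (-0.86, adjusted p = 0.00112) and the striatum (-1.33, adjusted p = 1.53e-06). Adamts4 was seen to follow the order before the block was chosen, so these p-values are no independent support. Without the block its adjusted p was 0.343 in the cortex and 0.0849 in the striatum. Whether arrays with the same order come from the same mouse, litter or chip cannot be told from the labels and was not tested. For the proteoglycan and net genes the block changed no call. The fixed block took KO and control arrays of the same order together, while the arrays with Eif2s3y differed in order between KO and control.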
